A study of Mus musculus with 26 samples.

Results

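The genes described here are Ahcy, which encodes S-adenosylhomocysteine (SAH) hydrolase, and 7 genes of the methionine, S-adenosylmethionine (SAM) and betaine pathway: Mat2a, Mat2b, Ahcyl1, Ahcyl2, Mtr, Chdh and Cbs. They were chosen by name, as the transcript of the enzyme that DZNep inhibits and its metabolic neighbours, and all 8 were found by symbol among the 37991 Ensembl genes of the count table. RNA-seq libraries came from mice of the rd10 strain, B6.CXB1-Pde6brd10/J, whose rods degenerate because of a mutation in the rod phosphodiesterase gene Pde6b. All mice carried that mutation, received intraperitoneal injections from PN9 (postnatal day 9) and were used at PN24, and each inhibitor was compared with the control injections of its own experiment. Whole retina was used in the experiments with DZNep, UNC1999, UNC0642 and Romidepsin, with 4 control and 2 treated libraries for DZNep, 3 and 3 for UNC1999, 2 and 2 for UNC0642, and 3 and 3 for Romidepsin. The fifth used rods sorted by flow cytometry from the cross of rd10 with B6.Cg-Tg(Nrl-EGFP)1Asw/J, in which the Nrl promoter drives EGFP in rods, with 2 control and 2 GSK2879552 libraries.

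DZNep (3-deazaneplanocin A) blocks SAH hydrolase and is used as an inhibitor of the histone methyltransferase EZH2, whereas UNC1999 competes with SAM at EZH2 and EZH1. UNC0642 inhibits the histone methyltransferases encoded by Ehmt2 and Ehmt1, Romidepsin inhibits histone deacetylases, and GSK2879552 inhibits the demethylase LSD1. The schedule of DZNep differs between the sources, daily in the labels and every other day later on in the study's text. UNC1999 was given in a solvent mixture that contained DMSO, while the labels give saline for the controls. The labels describe 1 library kit for all samples, and the study's methods another kit for the sorted rods, made from much less RNA. The number that ends the genotype and that of UNC1999 in the labels rises from sample to sample, and the titles were used for the groups.

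In the methionine cycle, methionine adenosyltransferase makes SAM from methionine and ATP, methyltransferases pass its methyl group on and release SAH, and SAH hydrolase splits SAH into homocysteine and adenosine. SAH inhibits most methyltransferases, so that its removal keeps methylation going. Homocysteine is either methylated back to methionine, by methionine synthase with folate or, mainly in liver, with betaine, or passed by cystathionine beta-synthase into cysteine and glutathione. Rods depend on several methylation reactions, among them the carboxyl methylation of prenylated phototransduction proteins.

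The depth of the retina libraries ran from 13732959 to 36354094 counts, and that of the sorted rods from 7289460 to 19864491. Levels are given as CPM, counts relative to the library total scaled by edgeR's TMM factors over all 26 libraries, and changes as log2 fold changes of treated over control with the standard error (SE) of edgeR's fit. Markers of other cells moved with the treatments. After DZNep, 15 of 15 rod markers rose and 11 of 12 Müller glia markers and 3 of 14 microglia markers fell, with summed levels of 20140 to 33610 CPM in controls and 61470 to 63260 in treated retinas for rods, 10330 to 10660 and 7250 to 8121 for Müller glia, and 213.6 to 471.2 and 160.6 to 180.6 for microglia. RPE (retinal pigment epithelium) markers rose for 6 of 13, from 99.04 to 228.2 CPM to 252.8 to 446 CPM, and 6 of 10 bipolar cell markers fell. In 1 of the 2 DZNep libraries, replicate 2, the lens markers summed to 90.25 CPM, against 5.83 in the other and 7.52 to 9.11 in controls. After UNC1999, 0.602% of all genes tested were called. Among the markers, 1 of 15 for rods and 8 of 13 for RPE rose and 2 of 14 for microglia fell. Rod sums were 22100 to 41540 CPM in controls and 56080 to 76200 in treated retinas. All 15 rod markers had a positive and all 14 microglia markers a negative log2 change. An unadjusted p under 0.05 in edgeR's test was found for 13 in each of these 2 lists, where 23.6% of all genes had one. After Romidepsin and UNC0642, no rod, Müller glia or RPE marker was called, and after UNC0642 none of the 16321 genes tested was. After Romidepsin, 1 gliosis marker rose, and 1 microglia and 1 bipolar cell marker fell. Of 15 rod markers, 14 had a positive log2 change after Romidepsin and 14 after UNC0642. An unadjusted p under 0.05 in edgeR's test was found for 9 of the 15 after Romidepsin and for 4 after UNC0642. For Müller glia markers it was found for 11 and 9 of 12, where 19.4% and 14.7% of all genes had one. Summed rod markers were at 26130 to 34290 CPM after Romidepsin against 16510 to 26560 in controls. After UNC0642 they were at 9624 to 14180 CPM against 9318 to 9430. The summed Müller glia markers were nevertheless at 6469 to 7603 CPM after Romidepsin against 9544 to 11240 in controls, and at 5434 to 5784 after UNC0642 against 7145 to 7994, and RPE markers at 72.8 to 96.8 CPM after Romidepsin against 145.2 to 166 in controls. No rod, Müller glia or microglia marker was at 0 throughout a group. The part of these cells in the results below was not tested, and in whole retina fewer cells of a type and less RNA per cell cannot be told apart.

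Ahcy lies at chr2:154885046-154900233 on the minus strand (build NCBIM37). Its transcript has near-identical copies elsewhere in the genome, which bear on how its reads were counted. Gm4737 on chromosome 16 matched 82.0% of the transcript at 99.7% identity and differed from Ahcy at 4 of its 1299 coding bases. Gm9826 on chromosome 1 and Gm5638 on chromosome X matched at 98.7% and 92.7% identity. Of the 2494 windows of 50 bases in the transcript, the length of each read of a pair in the sorted rod experiment, 77.1% occurred without change in at least 1 copy. A stretch of 120 coding bases, from base 356 to base 475 of the coding sequence, is shown. It was chosen because Gm4737 differed most from Ahcy there, so it does not rank the copies by likeness. The copies were read from the NCBIM37 genome and Ahcy from its annotated transcript of that build, with bases that differ from Ahcy in capitals.
Ahcy: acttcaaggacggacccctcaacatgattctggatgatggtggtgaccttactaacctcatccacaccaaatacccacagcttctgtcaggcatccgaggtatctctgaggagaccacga
Gm4737: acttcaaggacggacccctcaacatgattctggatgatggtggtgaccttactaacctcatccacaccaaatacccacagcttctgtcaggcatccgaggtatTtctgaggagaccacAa
Gm9826: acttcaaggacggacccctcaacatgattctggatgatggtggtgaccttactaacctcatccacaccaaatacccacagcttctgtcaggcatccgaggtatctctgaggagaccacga
Gm5638: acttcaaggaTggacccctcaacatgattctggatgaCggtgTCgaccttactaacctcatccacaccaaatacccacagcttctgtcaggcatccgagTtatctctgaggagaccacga

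Gm9826 had no difference from Ahcy in this stretch, Gm4737 had 2 and Gm5638 had 5. Over all coding bases aligned, Gm4737 differed at 4, Gm9826 at 11 and Gm5638 at 62. Over the 22 retinas, the copies held between 13.95% and 21.3% (median 17.1%) of the counts summed over Ahcy and its copies, and between 9.76% and 16.7% in the 4 libraries of sorted rods. Gm5638 had at most 2 counts in any retina. The share of reads that the copies could have taken or removed from Ahcy is not bounded by these counts, since how reads that match several places were treated is not given in the sources used here.

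The level of the Ahcy transcript did not pass the test after any of the treatments. In the DZNep experiment it was 24.6, 24.3, 22.9 and 25.8 CPM in the 4 controls and 25.0 and 24.2 CPM in the 2 treated retinas. The treated retinas lay within the range of the controls. The log2 change was 0.01 (SE 0.068, 95% interval -0.14 to 0.16, adjusted p = 0.930). With the counts of the copies added, an alternative chosen after seeing the data, the log2 change was 0.04 (adjusted p = 0.664). In the other experiments the groups overlapped in retina, and the log2 change of Ahcy was 0.08 (SE 0.065) after UNC1999, 0.08 (SE 0.10) after UNC0642 and 0.02 (SE 0.15) after Romidepsin. In sorted rods, Ahcy was at 15.1 and 19.3 CPM in controls and at 15.95 and 13.9 CPM after GSK2879552. By these CPM the groups overlapped, and with the TMM factors of this experiment alone both treated values lay below both controls. The log2 change there was -0.28, with a 95% interval from -0.98 to 0.42.

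**Figure D1:**
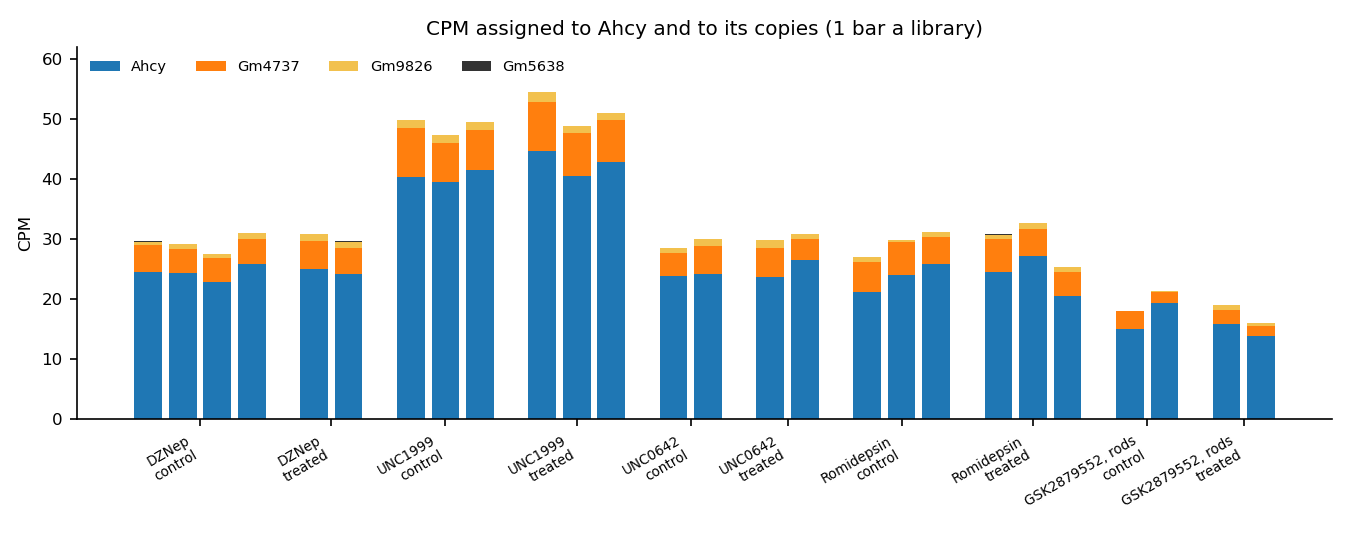
CPM assigned to Ahcy and stacked above it to its copies Gm4737, Gm9826 and Gm5638, 1 bar for each of the 26 libraries, by experiment and condition. Ahcy was at 39.5 CPM or more in the 6 libraries of the UNC1999 experiment and at 27.2 CPM or less in the other retinas, and treated bars stood beside control bars of like height within each retina experiment.

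Across the 10 groups, the level of Ahcy followed the experiment. The 3 UNC1999 controls had 39.5 to 41.5 CPM and the 9 other control retinas 21.3 to 25.9 CPM, with no overlap. The UNC1999 libraries carry the name series H-50 and the other retinas G-981, so that the experiment and the library series cannot be told apart. From UNC0642-treated to Romidepsin control retinas, 6 groups in a row had means between 23.7 and 25.1 CPM with ranges that overlapped from each group to the next. Both groups of sorted rods were lowest.

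In the direct comparisons of effects, fitted over all 22 retinas, the change of Ahcy after DZNep differed from that after UNC1999 by -0.06 on the log2 scale (95% interval -0.35 to 0.22), from that after UNC0642 by -0.06 (-0.39 to 0.26) and from that after Romidepsin by -0.01 (-0.30 to 0.28). None passed the test (adjusted p = 0.949, 0.897 and 0.987).

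After DZNep, 4 of the 8 genes passed edgeR's quasi-likelihood test at an adjusted p under 0.05, against 22.7% of the 16477 genes tested. Ahcyl1 and Mtr rose, and Cbs and Chdh fell. The groups did not overlap for these 4 genes and overlapped for the other 4, where 45.9% of all genes tested had groups that did not overlap. The median log2 change of the 8 genes was -0.0034, and that of all genes tested -0.00057. Scaling by total counts in place of TMM moved every value in this experiment by about -0.12 on the log2 scale, and the directions of the 4 calls were the same. With a log2 change above 1 also required, 1 of the 8 genes (Chdh) and 1.71% of all genes remained.

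**Figure D2:**
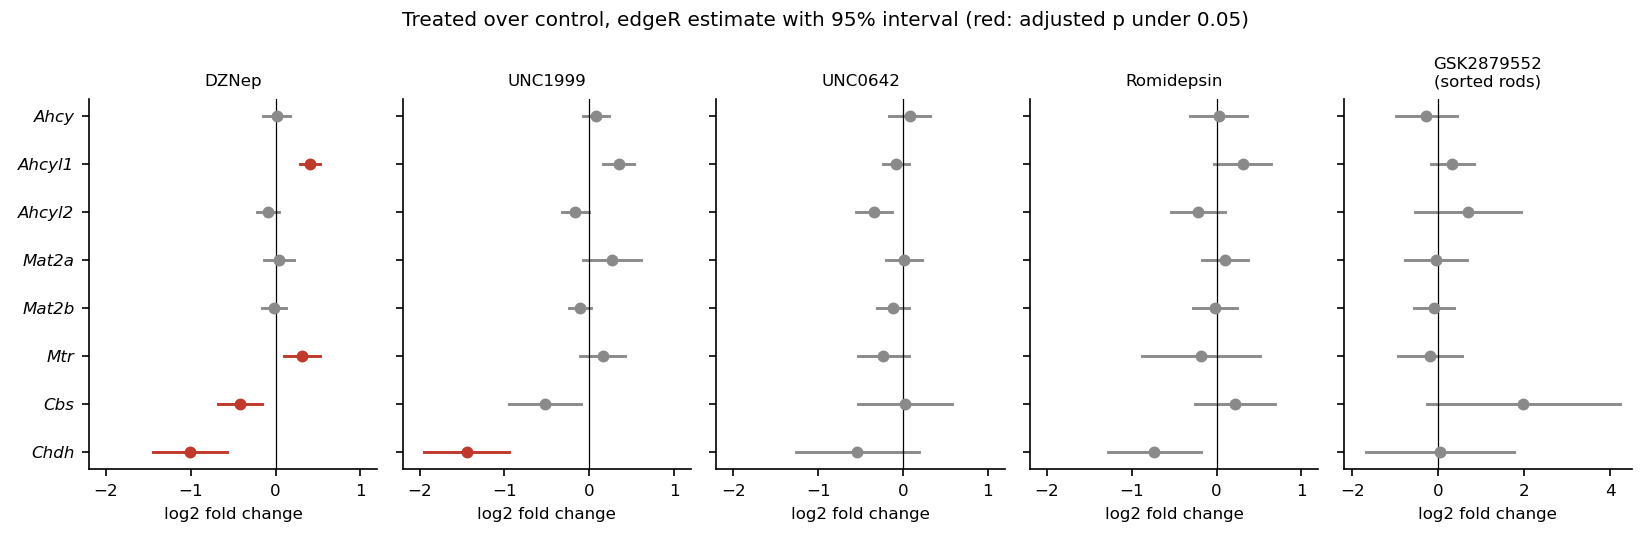
Log2 fold change of treated over control for the 8 genes in the 5 experiments, with the 95% interval of edgeR's fit, red where the adjusted p was under 0.05. Ahcy lay at 0.01 after DZNep, Ahcyl1 and Mtr above 0 and Cbs and Chdh below 0, and after UNC1999 Chdh alone was called. The axis of the sorted rods is wider than the others.

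Ahcyl1, also known as IRBIT, encodes a protein that resembles SAH hydrolase without its activity and regulates the inositol trisphosphate receptor and bicarbonate transporters. It lies at chr3:107466036-107499478 on the minus strand. In the DZNep experiment, Ahcyl1 was at 316, 303.8, 318.8 and 298 CPM in the controls and at 424.4 and 395.8 CPM in the treated retinas. Both treated retinas were above every control, by a log2 change of 0.41 (SE 0.051, adjusted p = 0.001345), or 1.325-fold. The call held without any of the 6 libraries in turn (adjusted p from 0.00079 to 0.0258), the lens-rich replicate 2 included.

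In the UNC1999 experiment, Ahcyl1 was at 303.5, 301 and 350.2 CPM in controls and at 386.1, 403.5 and 423.2 CPM in treated retinas. The groups did not overlap, and the log2 change of 0.345 (SE 0.079) missed the threshold (adjusted p = 0.0632). By DESeq2 (adjusted p = 0.00275), by the likelihood ratio test (adjusted p = 0.00824) and without control replicate 3 (adjusted p = 0.00754), it passed. After Romidepsin, the treated values were 347.9, 297.8 and 423.2 CPM against 304.6, 274.5 and 287.9 CPM, which overlapped (log2 change 0.31, SE 0.15, adjusted p = 0.295). In edgeR's joint fit of 22 retinas, that change passed (adjusted p = 0.0292). UNC0642 went with values just below the controls, 236.1 and 234.2 against 251.5 and 250.8 CPM (log2 change -0.08, SE 0.063, adjusted p = 0.556). The change after DZNep exceeded that after UNC0642 by 0.49 (95% interval 0.17 to 0.81). The unadjusted p was 0.0045 in edgeR's fit of 22 retinas and the adjusted p 0.193. It differed from the changes after UNC1999 and Romidepsin by 0.07 (95% interval -0.22 to 0.35) and 0.10 (-0.18 to 0.39). In sorted rods, Ahcyl1 was at 468.3 and 361.3 CPM in controls and at 528.3 and 573.6 CPM after GSK2879552, again without overlap (log2 change 0.33, SE 0.22, adjusted p = 0.987).

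Ahcyl2, the other gene for an SAH hydrolase-like protein (chr6:29718443-29862310, plus strand), was not called in any experiment. In the DZNep experiment it ran from 90.8 to 99.1 CPM in controls and was at 85.1 and 94.1 CPM in treated retinas (log2 change -0.09, adjusted p = 0.276). Its largest retinal difference came after UNC0642, with 98.05 and 103.9 CPM in controls and 84.4 and 73.3 CPM in treated retinas. There the log2 change was -0.34 (SE 0.088), with an unadjusted p of 0.0074 in edgeR's test and an adjusted p of 0.299. Without a filter on low counts that adjusted p was 0.0158. In sorted rods 1 library stood apart, with 34.95 CPM in GSK2879552 replicate 1 against 9.36 CPM in replicate 2 and 14.7 and 11.8 CPM in controls, and the sign of the change turned without it (log2 change from 0.69 to -0.58).

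Mat2a (chr6:72382793-72389552, minus strand) encodes the catalytic subunit of the methionine adenosyltransferase found outside the liver, and Mat2b (chr11:40492816-40508705, minus strand) its regulatory subunit. Neither was called in any experiment. After DZNep, Mat2a was at 345.7 and 307.8 CPM against 293.1 to 353.2 CPM in controls (log2 change 0.04, 95% interval -0.14 to 0.22). After UNC1999 it was at 255.8, 264.4 and 363.1 CPM against 239.8, 218.1 and 277.5 CPM, with a log2 change of 0.26 (SE 0.15, adjusted p = 0.317) that was 0.09 without treated replicate 3. Mat2b stayed between 45.2 and 60.1 CPM over the 22 retinas. It was lower than every control after UNC1999 and UNC0642, by log2 changes of -0.11 (adjusted p = 0.271 and 0.493). Mat2a also has a copy, 1700030G06Rik on chromosome 5, that matched 82.7% of the transcript at 94.7% identity and shared 17.5% of its 50-base windows.

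**Figure D3:**
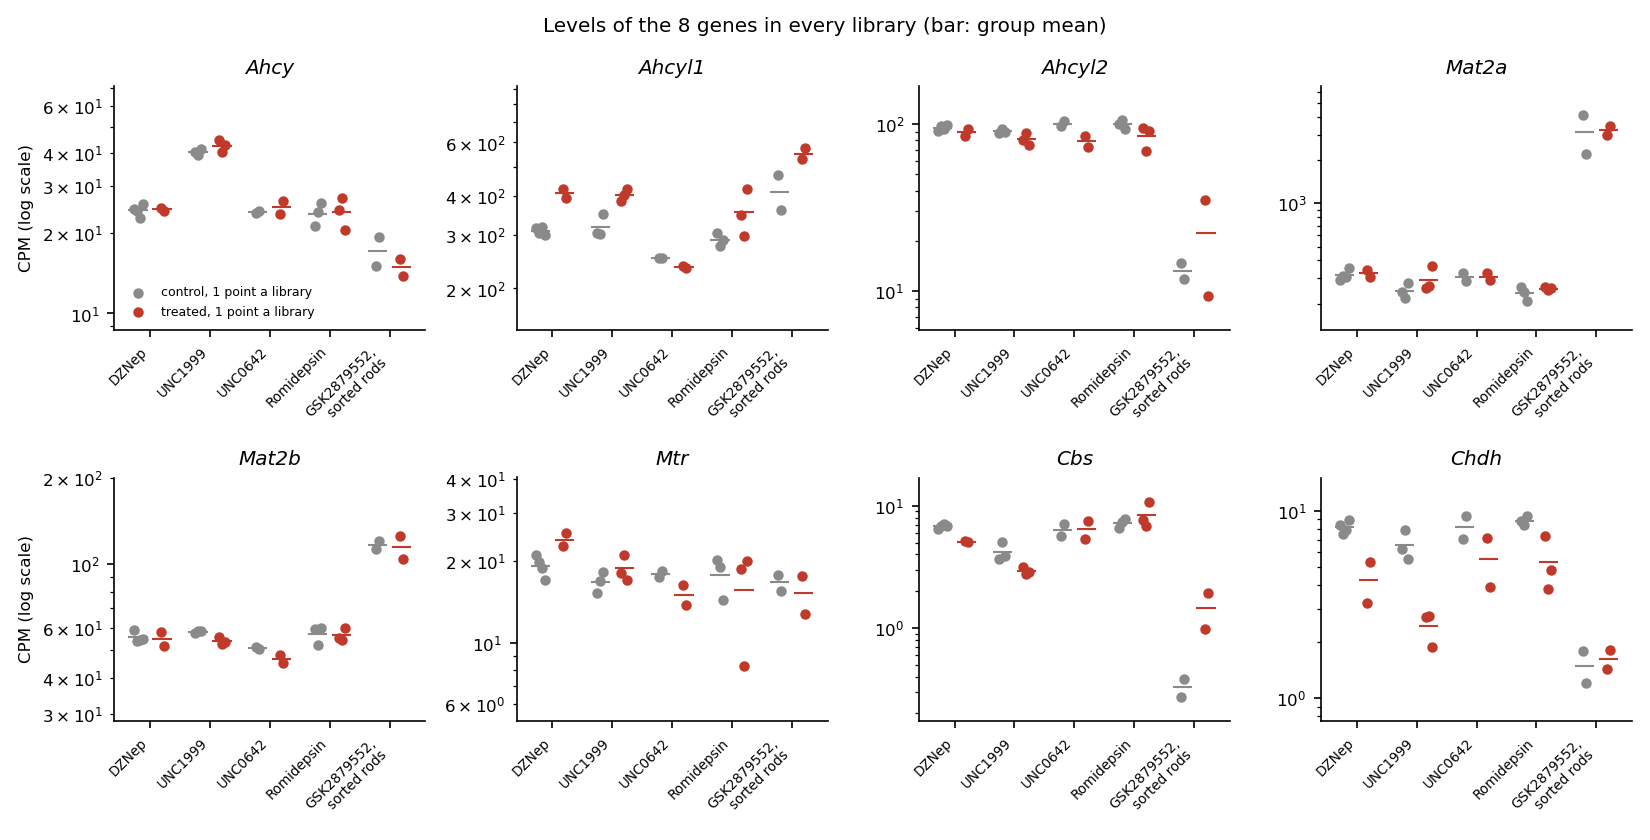
CPM of the 8 genes in every library on log axes, 1 point for each library and a bar for the group mean, with controls in grey and treated libraries in red for the 5 experiments. Mat2a and Mat2b were higher and Ahcy, Ahcyl2, Cbs and Chdh lower in all 4 libraries of sorted rods than in the 22 retinas, and Chdh was lower after DZNep and UNC1999 than in their controls.

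The widest differences among the 10 groups lay between the materials. Mat2a ran from 209.7 to 363.1 CPM in the 22 retinas and from 2199 to 4103 CPM in the 4 libraries of sorted rods. Mat2b ran from 104.2 to 125.2 CPM in sorted rods, above every retina. Per kb of exonic length, the level of Mat2a was 5.16 to 9.99 times that of Mat2b within each retina and 27.0 to 53.6 times within each library of sorted rods. Ahcy (13.9 to 19.3 CPM), Ahcyl2 (9.36 to 34.95 CPM), Cbs (0.27 to 1.92 CPM) and Chdh (1.202 to 1.805 CPM) were below every retina in sorted rods, while Mtr overlapped. Summed Müller glia markers were at 342 to 630.5 CPM in sorted rods and 5338 to 11240 CPM in retinas, and rod markers at 61130 to 97810 and 9318 to 76200 CPM. Cell type, dissociation, sorting and library kit differ together between these materials and cannot be told apart, so no test was made.

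**Figure D4:**
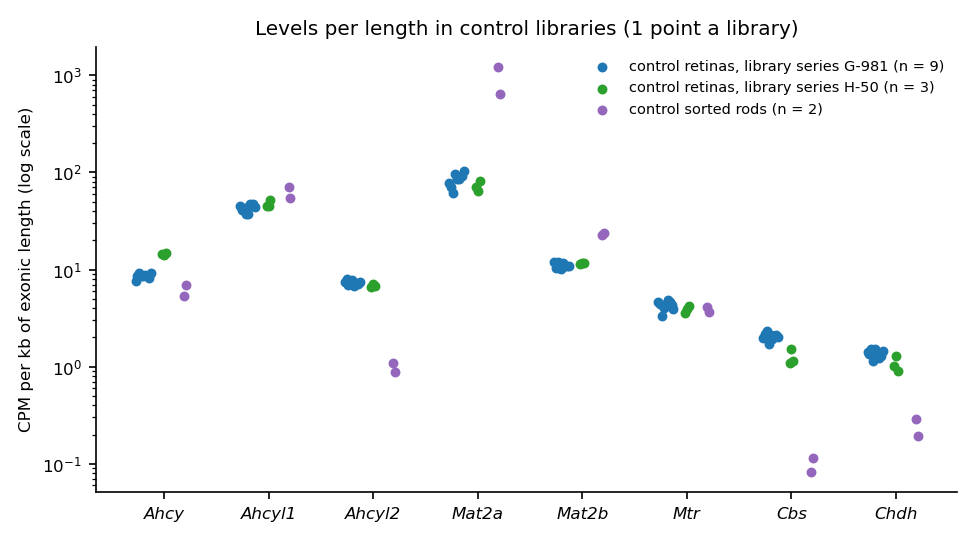
CPM per kb of exonic length of the 8 genes in control libraries, on a log axis, for 9 retinas of library series G-981, 3 of series H-50 and the 2 control libraries of sorted rods. Mat2a and Ahcyl1 were highest per length in every control retina, and Cbs and Chdh lowest.

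Per length, the order in the 12 control retinas was Mat2a (61.9 to 104.2 CPM per kb), Ahcyl1 (37.5 to 52.3), Mat2b (10.1 to 12.0), Ahcy (7.58 to 14.8), Ahcyl2 (6.62 to 7.96), Mtr (3.35 to 4.89), Cbs (1.1 to 2.3) and Chdh (0.898 to 1.52). Ahcy was below Mat2b in series G-981 (7.58 to 9.24 against 10.1 to 12.0 CPM per kb) and above it in series H-50 (14.1 to 14.8 against 11.5 to 11.7). Over both series, ranges overlapped between Mat2b and Ahcy, between Ahcy and Ahcyl2, and between Cbs and Chdh, and were apart for the other neighbours in the order. Within each retina, Ahcyl1 was 3.155 to 8.65 times as high per length as Ahcy, and Mat2a 4.57 to 11.5 times.

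Mtr (chr13:12279086-12350267, minus strand) encodes methionine synthase, which returns homocysteine to methionine with a methyl group from folate. In the DZNep experiment it was at 21.1, 19.8, 18.8 and 17.0 CPM in controls and at 22.7 and 25.2 CPM in treated retinas. Both treated retinas were above every control, by a log2 change of 0.31 (SE 0.093, adjusted p = 0.0418). The call was lost without any 1 of 5 libraries, all but control replicate 1 (adjusted p up to 0.205), and by DESeq2 (adjusted p = 0.0570). Over all alternatives run with every library, the adjusted p of Mtr after DZNep reached 0.406. In the other experiments Mtr was not called, with log2 changes of 0.16 (SE 0.11) after UNC1999, -0.23 (SE 0.12) after UNC0642, -0.18 (SE 0.305) after Romidepsin and -0.20 (SE 0.32) in sorted rods. Romidepsin replicate 2 had 8.295 CPM, and without it the log2 change was 0.12.

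Cbs (chr17:31749568-31774144, minus strand) encodes cystathionine beta-synthase, the entry of homocysteine into cysteine. It was at 6.502, 6.77, 7.04 and 6.79 CPM in the DZNep controls and at 5.12 and 5.02 CPM in treated retinas. Both treated retinas lay below every control, by a log2 change of -0.42 (SE 0.11, adjusted p = 0.0312). Over all alternatives run with every library, the adjusted p of Cbs reached 0.227. Like that of Mtr, this call was lost without any 1 of the same 5 libraries (adjusted p up to 0.155) and by DESeq2 (adjusted p = 0.112).

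After UNC1999, Cbs was at 3.15, 2.78 and 2.88 CPM against 3.66, 5.055 and 3.85 CPM in controls, without overlap (log2 change -0.52, SE 0.18, adjusted p = 0.143). After Romidepsin it was at 7.665, 6.81 and 10.65 CPM against 6.60, 7.30 and 7.77 CPM, with overlap (log2 change 0.22, SE 0.21). The change after DZNep was below that after Romidepsin by 0.63 on the log2 scale (95% interval -1.155 to -0.11). The unadjusted p was 0.0201 in edgeR's fit and the adjusted p 0.258. It differed from the changes after UNC1999 and UNC0642 by 0.11 (95% interval -0.43 to 0.65) and -0.44 (-1.02 to 0.15). In sorted rods the counts themselves were 2 and 6 in controls and 17 and 17 after GSK2879552, too few for more than a description.

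Chdh (chr14:30822209-30853652, plus strand) encodes choline dehydrogenase, which starts the conversion of choline to betaine. It showed the largest change of the 8 genes in every retina experiment. In the DZNep experiment it was at 8.43, 7.50, 7.92 and 8.90 CPM in controls and at 3.22 and 5.32 CPM in treated retinas. Both treated retinas were below every control, by a log2 change of -1.005 (SE 0.19, adjusted p = 0.00752), or 0.498-fold. Without treated replicate 1 the log2 change was -0.63 and the call was lost (adjusted p = 0.0777).

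After UNC1999, Chdh was at 2.70, 2.74 and 1.865 CPM against 6.21, 7.92 and 5.53 CPM in controls. This was the call of 1 of the 8 genes in that experiment, against 0.602% of the 15775 genes tested, with a log2 change of -1.44 (SE 0.22, adjusted p = 0.0408). The call was lost without any 1 of 5 libraries, all but control replicate 3, with adjusted p up to 0.189 and log2 changes from -1.55 to -1.27. After Romidepsin, Chdh was at 7.28, 3.83 and 4.81 CPM against 8.76, 8.39 and 9.35 CPM, again without overlap, and the log2 change of -0.73 (SE 0.24, adjusted p = 0.146) was called without treated replicate 1 (adjusted p = 0.0452). After UNC0642, the values of 7.17 and 3.91 CPM overlapped those of 7.04 and 9.39 CPM in controls (log2 change -0.54, SE 0.30, adjusted p = 0.418). The change after DZNep did not pass the test against that after UNC1999 (difference 0.47, 95% interval -0.31 to 1.24), UNC0642 (-0.44, -1.27 to 0.39) or Romidepsin (-0.25, -0.9998 to 0.50). Chdh shares 518 of its 6157 exonic bases with Cacna1d on the other strand, and whether counting used the strand is not given in the sources used here. Cacna1d, a calcium channel gene at 46.5 to 102.5 CPM in retinas, changed by -0.14 after DZNep and by 0.10 after UNC1999 on the log2 scale (adjusted p = 0.225 and 0.510).

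In the remaining experiments fewer genes passed. Besides Chdh, 4 of the 8 genes had groups that did not overlap after UNC1999, where 27.4% of all genes tested had such groups. Ahcyl1 was higher and Ahcyl2, Mat2b and Cbs were lower. An unadjusted p under 0.05 in edgeR's test was found for 3 of the 8 genes, against 23.6% of all genes. After UNC0642, 0 of the 8 genes and 0% of the 16321 genes tested were called by edgeR's quasi-likelihood test. There 1 gene (Ahcyl2) had an unadjusted p under 0.05, DESeq2 called 0, and 4 genes, Ahcyl1, Ahcyl2, Mat2b and Mtr, lay below every control where 52.1% of all genes did not overlap. After Romidepsin, 0 of the 8 genes and 0.748% of the 16049 genes tested were called, with 1 unadjusted p under 0.05 (Chdh), 0 by DESeq2 and 1 gene without overlap (26.0% of all genes). In sorted rods, 0 of the 8 genes and 0% of the 14478 genes tested were called, with 0 unadjusted p under 0.05 and 0 by DESeq2. Ahcyl1 and Cbs lay above and Ahcy below their controls in sorted rods, where 33.2% of all genes did not overlap. Whether groups overlapped was judged here with TMM factors within each experiment. By CPM over all 26 libraries, Ahcyl2 after UNC1999 (75.3 to 88.25 against 88.09 to 94.15 CPM) and Ahcy in sorted rods overlapped their controls.

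The direct comparisons of the effect of DZNep with those of the other compounds called 0 of the 8 genes. Of all 17274 genes, 0.00579% were called against UNC1999, 0.0232% against UNC0642 and 0.289% against Romidepsin. At an unadjusted p under 0.05 in edgeR's fit there were 0, 1 and 1 of the 8 genes, and DESeq2 called 0 in each comparison.

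The sequences before the start of transcription are shown for Ahcyl1, which rose after DZNep, and for Chdh and Cbs, which fell. Each is the 250 bases upstream of a RefSeq start (GRCm38.p6), found without change in NCBIM37, at chr3:107499479-107499728 on the minus strand for Ahcyl1, chr14:30821936-30822185 on the plus strand for Chdh and chr17:31774151-31774400 on the minus strand for Cbs. Capitals mark matches on either strand to the motifs searched, which were the photoreceptor homeobox motif TAATCC, the E-box CACGTG, the cAMP response element TGACGTCA and the amino acid response element TGATGNAAN.
Ahcyl1: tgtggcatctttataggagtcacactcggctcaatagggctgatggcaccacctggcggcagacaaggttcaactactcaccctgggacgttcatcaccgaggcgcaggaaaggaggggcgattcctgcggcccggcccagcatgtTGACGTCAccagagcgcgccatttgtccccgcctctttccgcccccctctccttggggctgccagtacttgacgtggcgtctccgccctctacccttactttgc
Chdh: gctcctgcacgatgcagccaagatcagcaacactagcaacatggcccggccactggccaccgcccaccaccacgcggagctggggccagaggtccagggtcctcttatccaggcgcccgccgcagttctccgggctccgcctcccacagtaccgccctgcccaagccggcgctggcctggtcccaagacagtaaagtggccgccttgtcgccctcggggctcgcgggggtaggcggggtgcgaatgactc
Cbs: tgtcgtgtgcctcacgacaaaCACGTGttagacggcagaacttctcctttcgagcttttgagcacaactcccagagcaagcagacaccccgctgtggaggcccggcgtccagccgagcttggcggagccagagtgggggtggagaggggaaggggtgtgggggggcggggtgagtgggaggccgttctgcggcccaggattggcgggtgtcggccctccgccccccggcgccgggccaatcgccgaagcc

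RefSeq gives 3 starts for Ahcyl1 and 3 for Chdh, of which the most upstream is shown. The window shown for Ahcyl1 held TGACGTCA, the full cAMP response element, which 1.55% of 32851 such windows held, and its other windows held none of the 4 motifs. That of Cbs held the E-box CACGTG, present in 6.02% of windows, and the window shown for Chdh held none. Another Chdh window, at chr14:30834239-30834488, held TAATCC, present in 6.25% of windows, and the remaining one held none. In the windows shown, the ratio of observed to expected CpG was 0.694 for Ahcyl1, 0.676 for Chdh and 0.741 for Cbs. The median over all windows was 0.373. The other windows had ratios of 1.127 and 0.872 for Ahcyl1 and of 0.12 and 0.117 for Chdh. These are descriptions of letters, and binding or methylation at these sites was not measured.

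The genes around the cycle were followed in 9 lists with 122 matched genes. After DZNep, 114 of them were tested, of which 18 rose and 17 fell, while 12.9% of all genes tested rose and 9.72% fell. The median log2 change over the lists was -0.03. After UNC1999, 0 of 114 were called by edgeR's quasi-likelihood test, against 31 with an unadjusted p under 0.05, where 23.6% of all genes had one, and 11 called by DESeq2. The same counts were 0, 17 and 1 of 114 after UNC0642, 2, 26 and 11 of 114 after Romidepsin, and 0, 4 and 1 of 102 in sorted rods. In these experiments 14.7%, 19.4% and 4.91% of all genes had an unadjusted p under 0.05. The share of all genes that DESeq2 called is not given here, so its counts for the lists are not set against one.

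**Figure D5:**
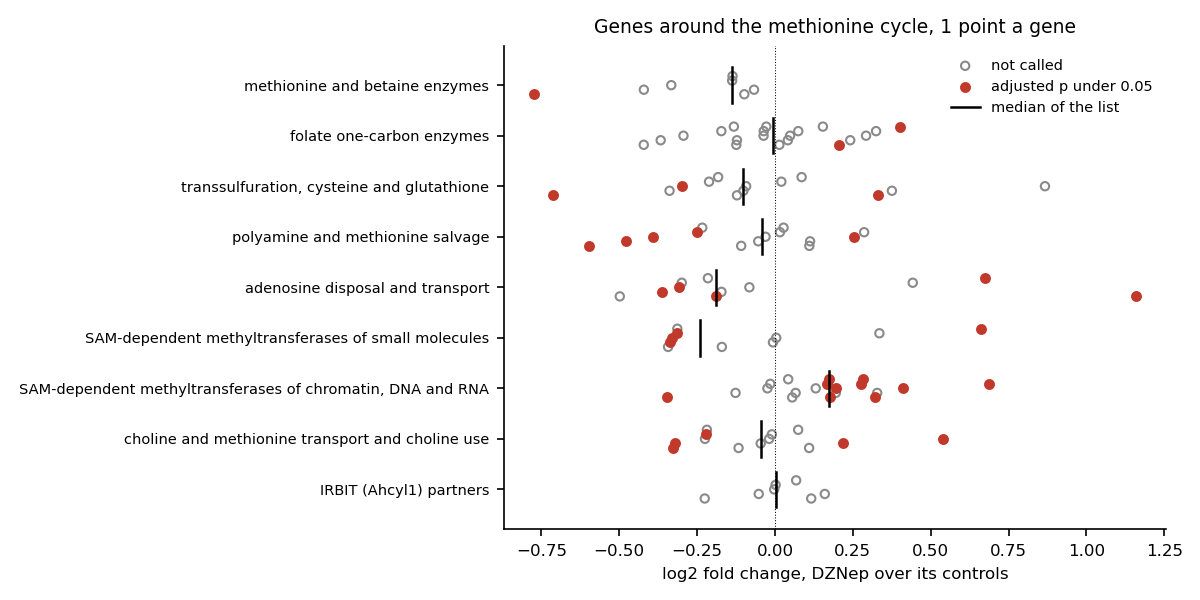
Log2 fold change of DZNep over its controls for the tested genes of the 9 lists, 1 point for each gene, red where the adjusted p was under 0.05, with a black bar at the median of each list. The median was highest for methyltransferases of chromatin, DNA and RNA (0.17) and lowest for methyltransferases of small molecules (-0.24).

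Of 19 tested methyltransferases of chromatin, DNA and RNA, which use SAM and release SAH, 9 rose and 1 fell after DZNep. Dnmt3a, a de novo DNA methyltransferase, was at 316.7 to 351.4 CPM in controls and at 437.9 to 459.7 CPM in treated retinas (log2 change 0.41, SE 0.0545, adjusted p = 0.00156). Dot1l, which methylates histone H3 in gene bodies, and Ezh1, the relative of Ezh2, rose by log2 changes of 0.28 and 0.32. Ezh2 itself was not called (0.20, adjusted p = 0.208), nor was Ehmt2, whose product UNC0642 inhibits (0.06, adjusted p = 0.442). Of 10 methyltransferases of small molecules, 1 rose and 3 fell. Icmt, the methyltransferase of prenylated proteins, rose from 454.4 to 561.6 CPM in controls to 798.1 to 809.4 CPM (log2 change 0.66, SE 0.082, adjusted p = 0.00129).

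On the side of adenosine, the other product of SAH hydrolase, 2 of 11 tested genes rose and 3 fell after DZNep. Nt5e, the ecto-nucleotidase CD73 that makes adenosine outside cells, was at 52.8 to 90.2 CPM in controls and at 151.5 to 164.4 CPM in treated retinas (log2 change 1.16, SE 0.16, adjusted p = 0.00193). It is made by rods in retina, and its level in sorted rods was 409.2 to 596.2 CPM. The nucleoside transporter gene Slc29a2 rose by 0.67 and Ampd3, an AMP deaminase, fell by 0.36 on the log2 scale. Adk, which encodes the kinase that removes adenosine inside cells, was at -0.22 (adjusted p = 0.0542).

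Among 7 tested methionine and betaine enzymes, 0 rose and 1 fell. That gene was Pipox, a peroxisomal oxidase of pipecolate and sarcosine, with a log2 change of -0.77 (SE 0.22, adjusted p = 0.0368). Bhmt, the enzyme that would use betaine, had at most 1 count in any library, and Mat1a, the liver form of methionine adenosyltransferase, at most 10, and neither was tested. Gnmt, which disposes of SAM on glycine, Mtrr, which reactivates methionine synthase, and Mettl16, an RNA methyltransferase that acts on Mat2a mRNA, were at -0.42, -0.07 and -0.14 without a call. Of 20 folate enzymes and carriers, 2 rose and 0 fell, among them Slc19a1, the reduced folate carrier (0.40, adjusted p = 0.00469).

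Of 13 genes of transsulfuration, cysteine and glutathione, 1 rose and 2 fell. Gss, glutathione synthetase, was at 0.33 and Mpst and Ggt1, a sulfurtransferase and a glutathione hydrolase, at -0.30 and -0.71, while Cth, which follows Cbs in the pathway, was not called (-0.21, adjusted p = 0.251). Of 14 genes of polyamines and methionine salvage, 1 rose and 4 fell, among them Amd1, S-adenosylmethionine decarboxylase (0.25), Smox, spermine oxidase (-0.48), and Mtap, which starts methionine salvage (-0.60). Of 13 genes of choline and methionine transport and choline use, 2 rose and 3 fell, among them the choline transporter-like genes Slc44a1 (0.54) and Slc44a2 (-0.33) and the amino acid transporter gene Slc7a8 (-0.32). Of the 7 partners of the Ahcyl1 protein, 0 were called by edgeR's quasi-likelihood test, 1 had an unadjusted p under 0.05, and DESeq2 called 1.

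After Romidepsin, the 2 called genes of the lists were Ggt1, which fell from 6.01 to 6.47 CPM in controls to 1.605 to 3.10 CPM (log2 change -1.42, SE 0.25, adjusted p = 0.0492), and the DNA methyltransferase gene Dnmt3b, which rose from 2.94 to 3.56 CPM to 6.275 to 7.31 CPM (log2 change 1.055, SE 0.18, adjusted p = 0.04805).

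The genes whose pattern over the 22 retinas was most like that of Ahcy were sought among 12310 genes, with each value taken as its difference from the mean of the controls of its experiment. By Pearson's r, the first 5 included Ubb (0.854), Atp5h (0.844), Pam16 (0.843) and Ptms (0.837), none of which was among the first 5 by Spearman's rho. For Mat2a, the first 3 by Pearson's r were Amy1 (0.874), Cdc7 (0.861) and Gm16586 (0.851), and Cdc7 was also second by Spearman's rho (0.840). These values carry no test, and the libraries differ in depth and come from both library series.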

How the data were processed

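RNA-seq libraries of 22 whole retinas and of 4 samples of sorted rods were used. The authors deposited raw read counts per Ensembl gene (37991 genes), made from trimmed reads aligned with HISAT2 and counted with HTSeq. The submitters' processing notes give HISAT2 2.2.1 and HTSeq 0.11.2 and the genome as NCBIM37. The strand setting of the counting and the treatment of reads with several matches are not given in the sources used here.

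Groups followed the titles in the labels. The members, gene lists and marker lists were chosen with earlier results of these data known. Each experiment was fitted on its own by edgeR 4.0.16 (quasi-likelihood test, TMM factors, filterByExpr), and effects were compared in a fit of all 22 retinas, with Benjamini-Hochberg adjustment over all genes tested and a threshold of 0.05. Replicates are labelled as biological, and p-values measure the spread between them. TMM factors ran from 0.938 to 1.06 within experiments, as used in the tests and to judge whether treated and control groups overlapped. Over all 26 libraries, as used for CPM, they ran from 0.878 to 1.1. DESeq2 1.42.0, edgeR's likelihood ratio test, another scaling, other filters, a fold threshold, a joint fit, a replicate block and leaving out each library were alternatives. No 2 of 23 replicate pairs were duplicates (chi-square per gene at least 3.886). Copies were sought with blastn 2.17.0, and promoters were taken from RefSeq. Scripts were tested on simulated data. The genes named from each list were the 3 called genes with the lowest adjusted p, with partner genes of the 8 fixed by name. Some genes that this rule or the measure of likeness would name are not reported here.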

Additional observations from a re-analysis of the deposited data

Results flagged for a closer look

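Among pairs of experiments whose effects were not compared directly, a gene was singled out where every treated library lay above every control in 1 experiment and below every control in the other. Cbs was below its controls in every treated library after DZNep and UNC1999 and higher in both GSK2879552 libraries of sorted rods. The difference in log2 change was -2.395 for DZNep less sorted rods and -2.50 for UNC1999 less sorted rods. The counts of Cbs in sorted rods were 2 and 6 in controls and 17 and 17 in treated libraries. Summed Müller glia markers there were at 342 to 507.5 CPM in controls and 613.5 to 630.5 CPM in treated libraries. Cone markers were at 3149 to 4980 and 1883 to 2470 CPM. The part of these cells was not tested. Ahcyl1 was higher in every UNC1999 retina and lower in both UNC0642 retinas, with a difference of 0.42 on the log2 scale. It was also lower after UNC0642 and higher in both GSK2879552 libraries, with a difference of -0.41. None of these 4 differences was tested. In 8 values in a group of 4 libraries, no library stood apart by Dixon's criterion, which chance meets in about 1 of 20 groups.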

How the results depend on the processing

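After DZNep, 4 of the 8 genes were called. The count was 1 with a threshold on the fold change, 2 by DESeq2, 2 in the joint fit of 22 retinas and between 1 and 4 when each library was left out. After UNC1999, 1 gene was called, against 2 by the likelihood ratio test, 2 by DESeq2, 2 with no filter on low counts, 2 in the joint fit and between 0 and 2 when each library was left out. After UNC0642 the count of 0 became 1 with no filter. After Romidepsin it became 2 in the joint fit and lay between 0 and 1 when each library was left out. In sorted rods and in the differences between effects it was 0 under every alternative run. Apart from the fold threshold, the shares of all genes called under these alternatives are not given here. These counts therefore show only how the calls depend on the processing.

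Same-numbered libraries of the groups compared had correlations of their deviations from -0.279 to 0.23, so the numbers were not taken to pair them. With the replicate block, 1 gene was called after DZNep and 0 after UNC1999, and 0 in the other comparisons.

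Signs were followed for the changes in the 5 experiments and for only some differences between effects. Those were the differences of Ahcy, of Ahcyl1 (DZNep less UNC0642) and of Cbs (DZNep less Romidepsin). Of these 610 alternative values for single genes, 31 turned sign, each of a gene that was not called. Outside the leave-one-out settings these were Mat2b after Romidepsin with a count minimum of 10 (0.00027), Mat2a in sorted rods with the replicate block (0.018) and the difference of Ahcy between DZNep and Romidepsin with the copies added (0.040). When each library was left out, log2 changes ran after DZNep from -0.0202 to 0.0390 for Ahcy, -0.0475 to 0.12 for Mat2a and -0.11 to 0.0588 for Mat2b. After UNC0642 they ran from -0.0163 to 0.17 for Ahcy, -0.0683 to 0.10 for Mat2a and -0.24 to 0.26 for Cbs. After Romidepsin they ran from -0.0700 to 0.13 for Ahcy, -0.0782 to 0.0197 for Mat2b and -0.40 to 0.12 for Mtr. In sorted rods they ran from -0.58 to 1.34 for Ahcyl2, -0.47 to 0.51 for Mat2a, -0.24 to 0.0360 for Mat2b, -0.45 to 0.0167 for Mtr and -0.26 to 0.38 for Chdh. The differences of Ahcy ran from -0.14 to 0.0237 (DZNep less UNC0642) and from -0.12 to 0.10 (DZNep less Romidepsin). Outside the 610 values, other differences also turned sign under some alternative. Among them, that of Chdh reached 0.075 for DZNep less UNC0642 and 0.091 for DZNep less Romidepsin. That of Cbs reached -0.060 for DZNep less UNC1999. The causes were not tested. With total counts in place of TMM factors, Ahcy after DZNep was at -0.11.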
